A study of Mus musculus with 13 samples.

Results

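The genes described here are 10 genes of prostaglandin and endocannabinoid signaling, Ptgs1, Ptgs2, Ptges, Ptger2, Ptger4, Dagla, Mgll, Faah, Cnr1 and Cnr2, found by their symbols among the 45777 genes of a hippocampal RNA-seq table. Each had 1 entry, and all 10 passed the filter on low counts in every comparison. The RNA came from the hippocampi of mice taken 3 days after saline (sham) or after status epilepticus (SE) induced with pilocarpine, a muscarinic agonist, injected at 6 weeks of age (260 mg/kg for males, 280 mg/kg for females). The 4 groups were SE-cKO (pilocarpine, Nestin-Cre::Lin28aloxP/loxP, n = 3), SE-WT (pilocarpine, Nestin-Cre::Lin28a+/+, n = 3), sham-cKO (saline, Nestin-Cre::Lin28aloxP/loxP, n = 4) and sham-WT (saline, Nestin-Cre::Lin28a+/+, n = 3). Every mouse, controls included, therefore carried the Nestin-Cre transgene, which acts in neural progenitors and all their descendants throughout the brain and not only in the hippocampus. Mice given pilocarpine had first received scopolamine methyl nitrate and terbutaline against its peripheral effects. Their seizures were stopped with diazepam, and only mice that had developed SE were kept. The sex of each mouse is not in the labels. The comparisons ask what SE did to these genes in each genotype, and whether loss of Lin28a, an RNA-binding protein that blocks let-7 maturation, altered that.

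Prostaglandins and endocannabinoids are lipid signals that share a building block, arachidonic acid. The cyclooxygenases COX-1 (Ptgs1) and COX-2 (Ptgs2) turn free arachidonic acid into prostaglandin H2, the prostaglandin E synthase encoded by Ptges converts this to prostaglandin E2, and the receptors EP2 (Ptger2) and EP4 (Ptger4) answer it by raising cyclic AMP. In the brain COX-1 is found mostly in microglia, whereas COX-2 is made by excitatory neurons as an immediate early gene of synaptic activity. The endocannabinoid 2-arachidonoylglycerol is made on demand in postsynaptic neurons by diacylglycerol lipase alpha (Dagla), travels back to the CB1 receptor (Cnr1) on presynaptic terminals, where it lowers transmitter release, and is broken down by monoacylglycerol lipase (Mgll) to arachidonic acid. Fatty acid amide hydrolase (Faah) breaks down the other main endocannabinoid, anandamide. The CB2 receptor (Cnr2) belongs to immune cells, microglia among them.

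On GRCm38.p6, Ptgs1 (chromosome 2, 36216742 to 36258593) and Ptges (chromosome 2, 30889471 to 30931020) share a chromosome, and Ptgs2 lies on chromosome 1 from 150100031 to 150108234. Ptger2 is on chromosome 14 (44988111 to 45003820) and Ptger4 on chromosome 15 (5233399 to 5244187). Cnr1 (33923171 to 33948831), Faah (115996668 to 116018837) and Cnr2 (135895189 to 135920219) all lie on chromosome 4, far from one another. Mgll is on chromosome 6 (88724412 to 88828360) and Dagla on chromosome 19 (10245265 to 10304877). Each position is the whole gene as RefSeq annotates it.

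The stretch of DNA before the start of Ptgs2 is shown here because Ptgs2 is the gene of this group known as an activity-dependent immediate early gene, and that of Ptgs1 because the 2 enzymes catalyse the same step and yet differed in how they varied between libraries. RefSeq windows of GRCm38.p6 (250 bases before to 50 after an annotated start) matched 9 of the 10 genes, with no entry for Dagla. Capitals mark matches, on either strand, to a half-site of the cyclic AMP response element (TGACG), the E-box CACGTG, the C/EBP palindrome TTGCGCAA, the TATA box TATAAA or the GC box GGGCGG. The Ptgs2 lines are the 250 bases before its start (chr1:150099781-150100030, plus strand) and a site of 30 bases just after it (chr1:150100035-150100064, plus strand). The Ptgs1 line is the 250 bases before the start that RefSeq gives, which lies inside the full span of the gene (chr2:36230176-36230425, plus strand).
Ptgs2 before the start: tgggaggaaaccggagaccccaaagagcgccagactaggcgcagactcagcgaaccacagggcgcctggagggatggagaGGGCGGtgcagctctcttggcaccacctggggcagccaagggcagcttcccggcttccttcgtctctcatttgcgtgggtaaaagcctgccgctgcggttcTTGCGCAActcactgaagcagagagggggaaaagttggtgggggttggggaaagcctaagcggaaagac
Ptgs2 site after the start: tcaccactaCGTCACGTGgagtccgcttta
Ptgs1 before the start: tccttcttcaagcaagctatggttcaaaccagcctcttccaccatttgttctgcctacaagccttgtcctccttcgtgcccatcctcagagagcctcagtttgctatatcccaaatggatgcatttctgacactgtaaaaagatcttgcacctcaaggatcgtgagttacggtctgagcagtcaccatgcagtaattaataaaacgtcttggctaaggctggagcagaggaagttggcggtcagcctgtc

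The Ptgs2 window held 1 GC box, 1 C/EBP palindrome, and 1 cyclic AMP half-site on the minus strand that overlapped 1 E-box (first base 17 bases after the start). Among the 32851 RefSeq windows of the same length, a GC box was found in 35.7%, a C/EBP palindrome in 0.2%, a cyclic AMP half-site in 20.8% and the E-box in 7.2%. The TATA letters, found in 13.6% of all windows, were absent from this window. The Ptgs1 window held none of the 5 motifs. The GC content of the 250 bases before the start was 61.6% for Ptgs2 and 48.0% for Ptgs1, beside a median of 52.4% over all windows. Distances hold for the start that RefSeq annotates, which may lie before the one used in these cells. These matches describe letters only and are not evidence of binding.

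The libraries held 59659977 to 84354243 read counts each, and levels below are CPM, read counts scaled to the size of the library, with TMM factors (trimmed mean of M values, which corrects for differences in library composition). Lin28a itself had 3 counts in SE-WT replicate 3 and 0 in the other libraries, so the deletion could not be checked from these data. Markers of hippocampal granule and CA pyramidal cells were present in all libraries, but 3 of the 13 stood apart in genes of neighbouring regions: SE-WT replicate 2 summed to 1120 CPM over 6 striatal neuron genes (37 to 95.4 CPM in the others), and sham-cKO replicate 2 and SE-WT replicate 3 summed to 967 and 561 CPM over 6 thalamic neuron genes (55.7 to 102 CPM in the others). The sum over 5 choroid plexus genes varied from 18.2 to 4370 CPM, with 1170 CPM in SE-cKO replicate 1, 2630 CPM in sham-cKO replicate 3, and 4370 CPM (replicate 3) and 1420 CPM (replicate 2) in sham-WT mice, against 638 CPM or less elsewhere. Astrocyte markers summed to 8970 to 10100 CPM in SE-cKO mice and 7470 to 8590 CPM in SE-WT mice, against 5160 to 6540 CPM in sham-cKO mice and 5590 to 6010 CPM in sham-WT mice. Of the 8, 3 rose and 1 fell in cKO mice, and 3 rose in WT mice. Gfap alone was at 2600 to 4970 CPM in SE mice against 229 to 358 CPM in sham mice. Slc1a2 was lower, at 1660 to 3040 CPM against 2810 to 4240 CPM. Of 6 endothelial markers, 4 rose in SE-cKO against sham-cKO. The part of these regions and cell types in the results below was not tested. Labels do not say how the mice relate to one another or to processing days, so p-values measure only the spread between these libraries. The numbers in the titles of the sham libraries form a run of their own, above those of all SE libraries. What these numbers stand for is not stated, and SE cannot be told apart from anything that follows them. Tests between groups are edgeR's quasi-likelihood test, with p adjusted by Benjamini-Hochberg over every gene tested. A gene is said to have risen or fallen where the adjusted p was under 0.05.

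In SE-cKO against sham-cKO, 8 of the 10 genes passed the test. Both cyclooxygenases, Ptges, both prostaglandin E2 receptors and Cnr2 rose, whereas Dagla and Faah fell. Across all 21307 genes tested there, 13.8% rose and 8.92% fell. In WT mice (SE-WT against sham-WT) none of the 10 passed, where the shares of the 20803 tested genes that rose and fell were 4.57% and 0.832%. At an unadjusted p under 0.05, 4 of the 10 passed in WT mice (Ptgs1, Ptger4, Faah and Cnr2; 20.8% of all genes did), and DESeq2 and limma voom each called 3 (Ptgs1, Ptger4 and Cnr2, all higher; 13% and 10.1% of all genes). The median log2 fold change over the 10 genes was 1.35 in cKO mice and 0.73 in WT mice, beside medians of 0 and 0.02 over all genes tested. The ranges of SE and sham libraries did not overlap for 7 of the 10 genes in cKO mice (34.2% of all genes) and for 4 in WT mice (28.7%). The test of the difference between the SE effects, given at the end, called none of the 10. Because the 10 genes were chosen with earlier results of these data known, the shares and medians over all genes are given as a description only.

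**Figure D1:**
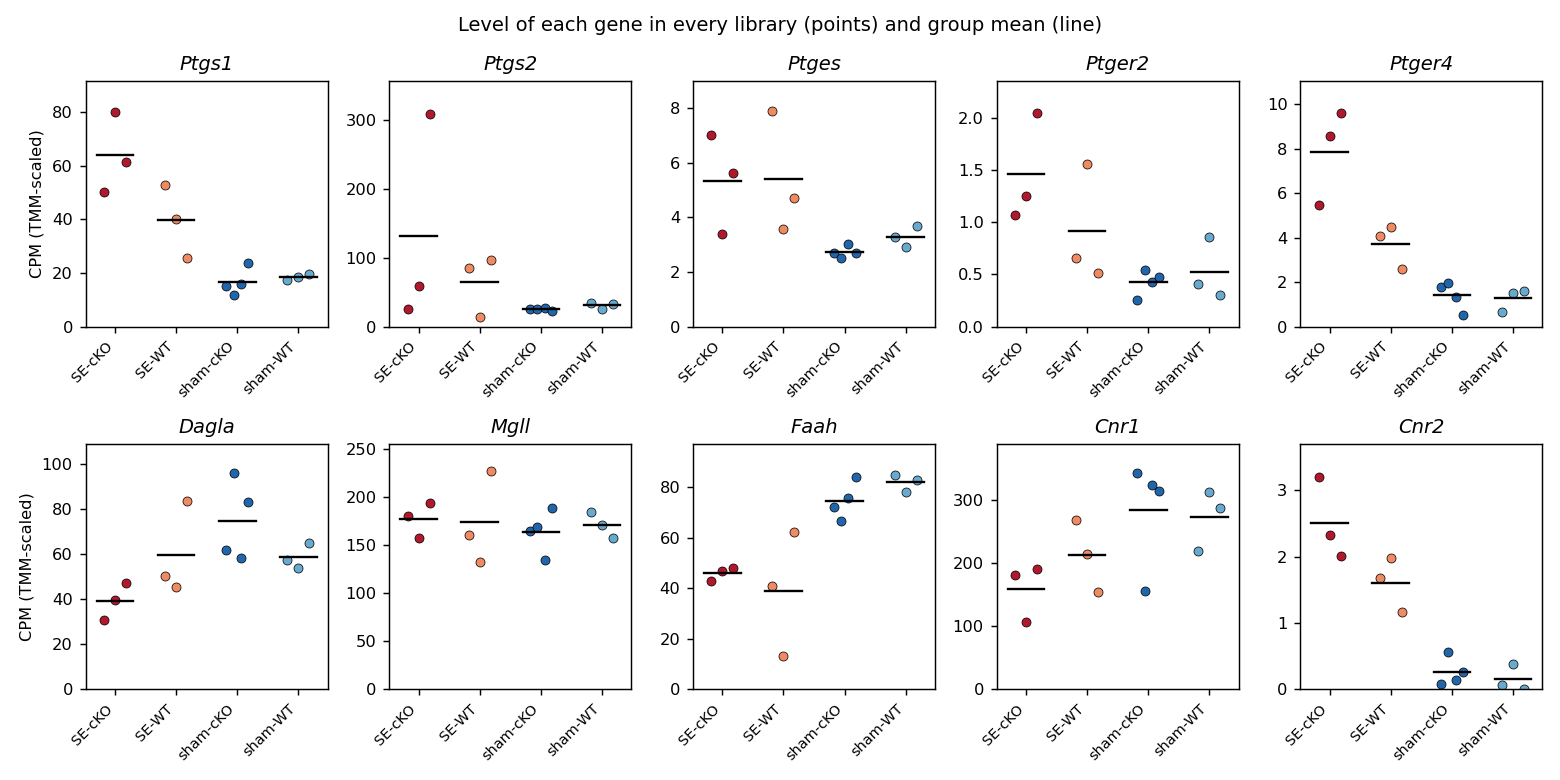
Level of each of the 10 genes (TMM-scaled CPM, linear axis from 0, its own scale in each panel) in every library, shown as points for SE-cKO (n = 3), SE-WT (n = 3), sham-cKO (n = 4) and sham-WT (n = 3), with the group mean as a line. Ptgs1, Ptger4 and Cnr2 lie higher in all SE libraries than in all sham libraries, Ptgs2 reaches 309 CPM in 1 SE-cKO library, Faah lies lower in all SE libraries, and Mgll spans similar values in the 4 groups.

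Ptgs1, the COX-1 gene, was at 50.4, 80.0 and 61.5 CPM in SE-cKO mice, against 15.2, 11.8, 15.9 and 23.7 CPM in sham-cKO mice. In WT mice it was 52.9, 40.4 and 25.8 CPM after SE, against 17.6, 18.5 and 19.6 CPM in sham-WT mice. Each SE library was above each sham library in both genotypes. Ptgs1 rose in SE-cKO against sham-cKO by 1.92 on the log2 scale (standard error 0.24, edgeR adjusted p = 0.000894) and was called in all 7 fits that left out 1 library. Its log2 fold change in SE-WT against sham-WT was 1.07 (standard error 0.25, edgeR adjusted p = 0.0588), past the threshold in DESeq2 (adjusted p = 0.00227) and voom (adjusted p = 0.01), and in edgeR once SE-WT replicate 3 was left out (1.32, adjusted p = 0.00744). Microglial markers moved in the same direction: all 8 rose in both genotypes, and they summed to 1380 to 2210 CPM in SE-cKO mice, 1210 to 1610 CPM in SE-WT mice, 347 to 373 CPM in sham-cKO mice and 365 to 388 CPM in sham-WT mice, with no marker at 0. Relative to that sum Ptgs1 was at 2.29% to 4.46% in SE-cKO mice, 2.13% to 3.28% in SE-WT mice, 3.21% to 6.61% in sham-cKO mice and 4.55% to 5.36% in sham-WT mice. Ptgs1 per microglial marker was thus lower after SE in WT mice without overlap, and the ranges overlapped in cKO mice. The part of these cells in the result was not tested, and in bulk RNA a change in the number of cells of a type and a change in RNA per cell cannot be told apart.

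Ptgs2 behaved differently from Ptgs1. It was at 25.6, 58.2 and 309 CPM in SE-cKO mice, against 25.0, 25.6, 27.2 and 23.1 CPM in sham-cKO mice. SE-WT mice had 84.3, 14.6 and 96.7 CPM, against 34.2, 24.9 and 32.8 CPM in sham-WT mice. The sham libraries were close together, with a coefficient of variation of 6.68% in sham-cKO and 16.4% in sham-WT, while the SE libraries scattered widely (118% in SE-cKO and 67.9% in SE-WT). In each genotype 1 SE library lay within or below the range of the sham libraries. The rise in SE-cKO against sham-cKO (log2 fold change 2.35, standard error 0.69, edgeR adjusted p = 0.0404) rested on SE-cKO replicate 3, without which it was 0.73 (edgeR adjusted p = 0.114), and voom with quality weights did not call it (adjusted p = 0.139). It was called in 2 of the 7 fits that left out 1 library. The WT log2 fold change of 1.06 (standard error 0.59, edgeR adjusted p = 0.364) became 1.54 (edgeR adjusted p = 0.00481) when SE-WT replicate 2, the library high in striatal genes, was left out.

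The spread of Ptgs2 resembled that of other activity-regulated genes, Bdnf above all. Bdnf, which encodes brain-derived neurotrophic factor, had the highest Pearson correlation with Ptgs2 among 14050 genes (r = 0.976 of log2 CPM over the 13 libraries), followed by Spry2 (0.93) and Emd (0.928). Bdnf was at 47, 74.8 and 351 CPM in SE-cKO mice, 79.6, 17.5 and 89.2 CPM in SE-WT mice, 31.1 to 37.5 CPM in sham-cKO mice and 36.7 to 48.9 CPM in sham-WT mice. The sum over 8 activity-regulated genes, Fos, Arc and Npas4 among them, was 234, 274 and 1440 CPM in SE-cKO mice, 543, 142 and 836 CPM in SE-WT mice, 148 to 353 CPM in sham-cKO mice and 214 to 324 CPM in sham-WT mice. Of these 8 genes, Bdnf among them, 3 rose in SE-cKO against sham-cKO and none in SE-WT against sham-WT. SE-cKO replicate 3 was the highest library and SE-WT replicate 2 the lowest for both Ptgs2 and Bdnf. The low end differed for other genes of the sum, since Fos was at 20.5 CPM in SE-WT replicate 2, above all sham libraries (6.53 to 19.5 CPM), and Npas4 was lowest in SE-cKO replicate 1 (2.79 CPM). These libraries share depth and tissue composition within each sample, and the correlation is given as a description.

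**Figure D2:**
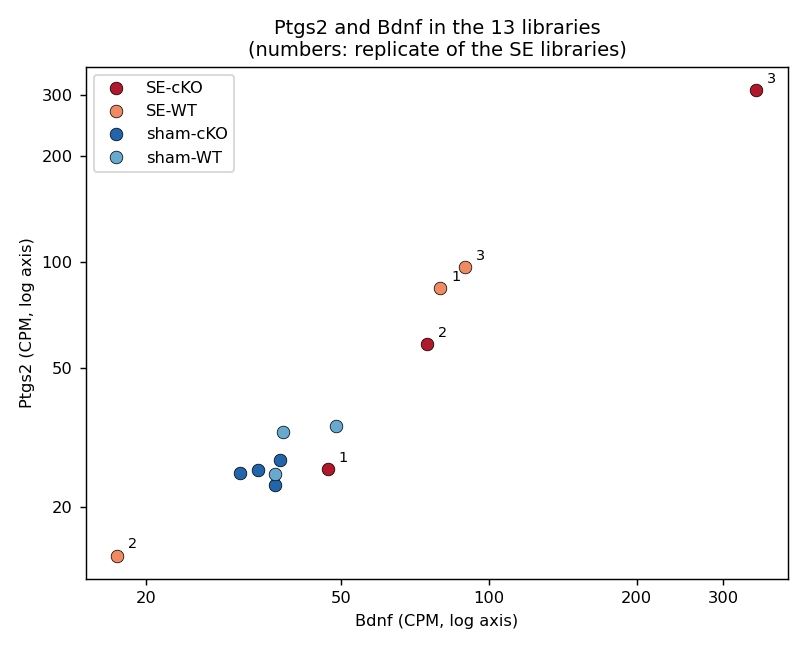
Ptgs2 against Bdnf in the 13 libraries (both in CPM on log axes), with 1 point per library coloured by group and the replicate number beside each SE library. The points run along 1 line from SE-WT replicate 2 (14.6 CPM of Ptgs2, 17.5 CPM of Bdnf) through the sham libraries to SE-cKO replicate 3 (309 CPM of Ptgs2, 351 CPM of Bdnf).

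The balance between the cyclooxygenases was compared per transcript length, in TPM, which divides reads by transcript length and by library size. The ratio of Ptgs2 to Ptgs1 TPM ranged from 0.378 to 4.34 in SE-cKO mice and from 0.33 to 2.9 in SE-WT mice, against 0.802 to 1.74 in sham-cKO mice and 0.991 to 1.45 in sham-WT mice. In each SE group the range reached both below and above the sham range, so neither enzyme was the more abundant one throughout.

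Ptges, the inducible synthase that acts after the cyclooxygenases, was at 7.02, 3.40 and 5.61 CPM in SE-cKO mice, against 2.71, 2.52, 3.02 and 2.70 CPM in sham-cKO mice. In WT mice it was at 7.90, 3.58 and 4.70 CPM after SE, against 3.26, 2.93 and 3.69 CPM in sham-WT mice. The groups did not overlap in cKO mice and overlapped in WT mice. Its rise in SE-cKO against sham-cKO was 0.94 on the log2 scale (standard error 0.27, edgeR adjusted p = 0.0372). That call was close to the threshold, since it held in only 1 of the 7 fits that left out 1 library (adjusted p 0.0123 to 0.104) and not in voom (adjusted p = 0.0579). Its WT log2 fold change was 0.68 (standard error 0.32, edgeR adjusted p = 0.288). A predicted long noncoding gene overlapping Ptges, Gm52550, had 0 counts, and a pseudogene that also overlaps it, Gm13400, was not quantified.

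Ptger4, the EP4 receptor, had the largest log2 fold change in cKO mice of the prostaglandin genes in this group. Ptgs2 was close to it (2.35, standard error 0.69). Ptger4 was at 5.46, 8.57 and 9.59 CPM in SE-cKO mice, against 1.80, 1.94, 1.31 and 0.541 CPM in sham-cKO mice. SE-WT mice had 4.06, 4.49 and 2.59 CPM, against 0.667, 1.52 and 1.62 CPM in sham-WT mice. Neither genotype showed overlap between SE and sham, and all 3 SE-cKO libraries were also above all 3 SE-WT libraries. The log2 fold change was 2.46 in SE-cKO against sham-cKO (standard error 0.42, edgeR adjusted p = 0.00404), called in all 7 fits that left out 1 library. In SE-WT against sham-WT it was 1.53 (standard error 0.42, edgeR adjusted p = 0.0907), called by DESeq2 (adjusted p = 0.00916) and voom (adjusted p = 0.0351). Relative to the sum of the microglial markers, Ptger4 was at 0.248% to 0.695% in SE-cKO mice and 0.214% to 0.297% in SE-WT mice, against 0.151% to 0.528% in sham-cKO mice and 0.173% to 0.444% in sham-WT mice, ranges that overlapped.

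Ptger2, the EP2 receptor, was the scarcest prostaglandin gene of the group, with 18 to 137 counts per library. It was at 1.07, 1.25 and 2.05 CPM in SE-cKO mice, against 0.255, 0.544, 0.423 and 0.475 CPM in sham-cKO mice. SE-WT mice had 0.661, 1.56 and 0.518 CPM, against 0.407, 0.856 and 0.304 CPM in sham-WT mice. All SE-cKO libraries exceeded all sham-cKO libraries, whereas the WT groups overlapped. It rose in SE-cKO against sham-cKO by 1.75 on the log2 scale (standard error 0.41, edgeR adjusted p = 0.0161), with 1.45 and an adjusted p of 0.0588 once SE-cKO replicate 3 was left out of the edgeR fit. The WT log2 fold change was 0.78 (standard error 0.62, edgeR adjusted p = 0.535). Per length, Ptger4 exceeded Ptger2 in every library, with TPM ratios of 5.15 to 7.89 in SE-cKO mice, 3.3 to 7.07 in SE-WT mice, 1.29 to 8.04 in sham-cKO mice and 1.86 to 6.17 in sham-WT mice.

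Among the endocannabinoid genes, Dagla, which makes 2-arachidonoylglycerol, fell in cKO mice. Its level was 30.6, 39.7 and 47.2 CPM in SE-cKO mice, against 61.7, 95.6, 58.1 and 82.8 CPM in sham-cKO mice. SE-WT mice had 50.1, 45.3 and 83.3 CPM, against 57.4, 53.9 and 64.7 CPM in sham-WT mice. The cKO groups did not overlap, and the SE-WT libraries lay on both sides of the sham-WT range. The SE-WT library above that range was replicate 3 (83.3 CPM), and the others lay below it. This library was high in thalamic genes, as was the highest sham-cKO library, replicate 2 (95.6 CPM). The part of that tissue in the Dagla values was not tested. The log2 fold change was -0.95 in SE-cKO against sham-cKO (standard error 0.22, edgeR adjusted p = 0.0142) and -0.01 in SE-WT against sham-WT (standard error 0.23, edgeR adjusted p = 0.993). The cKO call was lost in 2 of the 7 fits that left out 1 library, without SE-cKO replicate 1 (edgeR adjusted p = 0.0526) and without SE-cKO replicate 2 (edgeR adjusted p = 0.0529). The sum of 8 general neuronal genes was lower after SE in both genotypes, whereas Dagla fell only in cKO mice. It was 3320 to 4610 CPM in SE-cKO mice and 3970 to 5230 CPM in SE-WT mice. Sham mice had 5330 to 6080 CPM (sham-cKO) and 5310 to 6070 CPM (sham-WT). Of the 8, 2 passed the test in cKO mice and none in WT mice, and no marker was at 0. Nefl and Rbfox3 were higher in SE-cKO replicate 3 than in every sham-cKO library. The part of neurons in the fall of Dagla was not tested.

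Mgll, the lipase that removes 2-arachidonoylglycerol, had log2 fold changes near 0 in both genotypes. It was at 181, 158 and 194 CPM in SE-cKO mice and 161, 133 and 228 CPM in SE-WT mice, against 165, 169, 134 and 188 CPM in sham-cKO mice and 185, 172 and 158 CPM in sham-WT mice. All 4 groups overlapped. The highest value, 228 CPM, was in SE-WT replicate 3, a library high in thalamic genes and highest in oligodendrocyte markers. The part of that tissue in the Mgll values was not tested. The log2 fold changes of 0.09 in cKO mice (standard error 0.14, edgeR adjusted p = 0.708) and -0.01 in WT mice (standard error 0.2, edgeR adjusted p = 0.989) were within their standard errors. A long noncoding gene that overlaps Mgll, Gm26588, averaged 2.41 CPM.

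Faah, the enzyme that breaks down anandamide, was lower in every SE library than in every sham library. It was at 43.1, 46.8 and 48.2 CPM in SE-cKO mice, against 72.4, 66.9, 75.7 and 84.1 CPM in sham-cKO mice. SE-WT mice had 41.0, 13.3 and 62.2 CPM, against 84.9, 78.3 and 82.8 CPM in sham-WT mice. The SE-cKO libraries were close together and the SE-WT libraries far apart, with a coefficient of variation of 5.70% and 63.1%. In SE-cKO against sham-cKO the log2 fold change was -0.73 (standard error 0.11, edgeR adjusted p = 0.00226), called in all 7 fits that left out 1 library but not where all 4 groups entered 1 fit (edgeR adjusted p = 0.173). The WT value was larger, -1.11, and had a larger standard error, 0.47 (edgeR adjusted p = 0.238). Without SE-WT replicate 2, the library at 13.3 CPM and the one high in striatal genes, it was -0.69 (edgeR adjusted p = 0.0836). The part of that tissue in the Faah level was not tested, and the correlations below include this library. The genes whose levels followed Faah most closely over the 13 libraries were Fyb2 (r = 0.989) and the neuronal transcription factor genes Neurod1 (r = 0.984) and Neurod6 (r = 0.979). The sum over 6 granule cell markers was lower as well. It was 233 to 251 CPM in SE-cKO mice and 145 to 265 CPM in SE-WT mice. Sham mice had 300 to 388 CPM (sham-cKO) and 294 to 356 CPM (sham-WT). No marker was at 0, and 3 of 6 fell in cKO mice and 2 of 6 in WT mice. Calb1, Dsp and Tdo2 were lower in every SE library than in every sham library. Prox1, C1ql2 and Pdzd2 overlapped between SE and sham in both genotypes, and Pdzd2 had its highest values in SE libraries. CA pyramidal markers summed over 6 genes to 218 to 338 CPM in SE-cKO mice and 226 to 394 CPM in SE-WT mice, against 248 to 424 CPM in sham-cKO mice and 319 to 427 CPM in sham-WT mice, with at most 1 marker at 0 in a library, and 3 of 6 fell in cKO mice and 1 of 6 in WT mice. The part of either cell type in the lower Faah level was not tested.

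The ratios between these enzymes moved with the levels. The Mgll to Faah ratio of TPM was 3.5 to 4.79 in SE-cKO mice and 3.94 to 10.1 in SE-WT mice, against 1.9 to 2.62 in sham-cKO mice and 2.17 to 2.5 in sham-WT mice, with no overlap between SE and sham. The Mgll to Dagla ratio of TPM was 6.02 to 8.76 in SE-cKO mice, above the 4.1 to 4.84 of SE-WT mice, the 2.58 to 3.96 of sham-cKO mice and the 3.61 to 4.72 of sham-WT mice. These ratios follow from the levels above and were not tested.

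**Figure D3:**
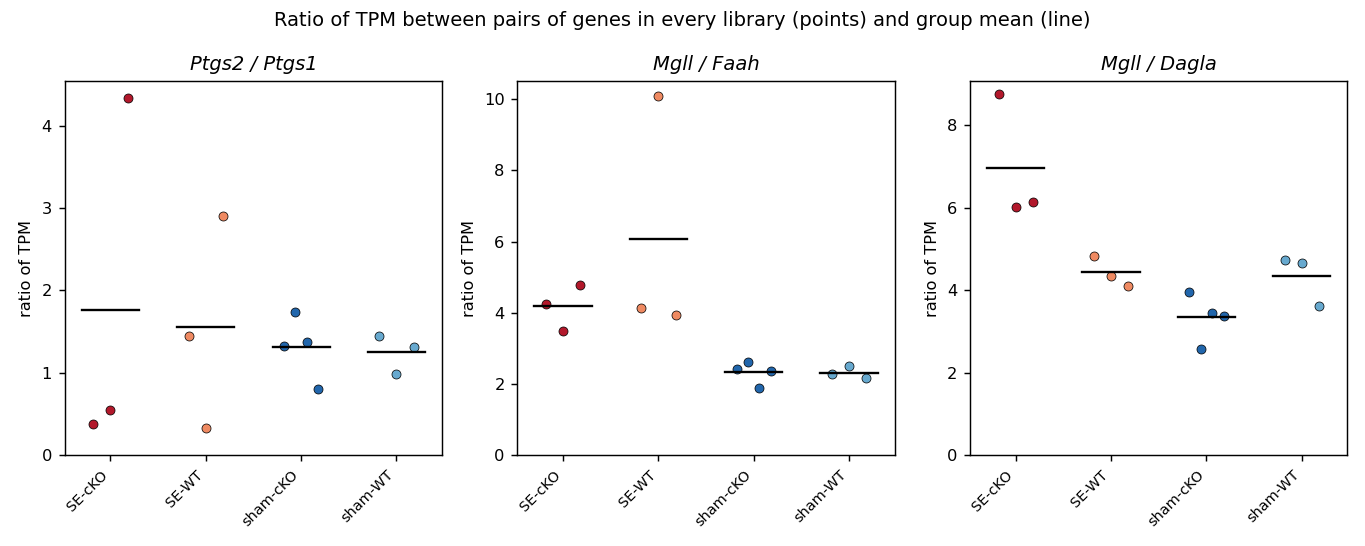
Ratios of TPM between Ptgs2 and Ptgs1, Mgll and Faah, and Mgll and Dagla in every library (points, linear axes from 0), with the group mean as a line, for SE-cKO, SE-WT, sham-cKO and sham-WT. The Mgll to Faah ratio is 3.5 or more in all SE libraries and 2.62 or less in all sham libraries, the Mgll to Dagla ratio is highest in the 3 SE-cKO libraries, and the Ptgs2 to Ptgs1 ratio runs from 0.33 to 4.34 over the SE libraries.

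The receptors Cnr1 and Cnr2 differed in level and in direction. Cnr1, the CB1 receptor, was at 181, 107 and 190 CPM in SE-cKO mice, against 342, 156, 324 and 315 CPM in sham-cKO mice. SE-WT mice had 268, 215 and 154 CPM, against 220, 313 and 287 CPM in sham-WT mice. The groups overlapped in both genotypes, in cKO mice through sham-cKO replicate 2 (156 CPM), a library high in thalamic genes. The log2 fold change was -0.86 in SE-cKO against sham-cKO (standard error 0.30, edgeR adjusted p = 0.0741). It was past the threshold in DESeq2 (adjusted p = 0.0138), in voom (adjusted p = 0.0488) and in edgeR without sham-cKO replicate 2 (-1.08, adjusted p = 0.0102). The WT value was -0.39 (standard error 0.23, edgeR adjusted p = 0.395).

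Cnr2, the CB2 receptor, was rare. Its read counts were 251, 174 and 134 in SE-cKO mice, against 6, 36, 10 and 16 in sham-cKO mice. SE-WT mice had 104, 144 and 94 counts, against 5, 28 and 0 in sham-WT mice. A count of 0 in sham-WT replicate 3 leaves room for up to 0.0506 CPM, the value of 3 counts, by counting error alone. In CPM it averaged 2.51 ± 0.621 in SE-cKO mice and 1.61 ± 0.417 in SE-WT mice (SD, n = 3 each), against 0.258 ± 0.216 in sham-cKO mice (SD, n = 4) and 0.149 ± 0.208 in sham-WT mice (SD, n = 3). All SE libraries were above all sham libraries. It rose in SE-cKO against sham-cKO by 3.26 on the log2 scale (standard error 0.63, edgeR adjusted p = 0.00686), called in all 7 fits that left out 1 library. The WT log2 fold change was 3.36 with a standard error of 1.09 (edgeR adjusted p = 0.135, DESeq2 0.0164, voom 0.0465). It ran from 2.81 without sham-WT replicate 3, the library at 0, to 5.49 without sham-WT replicate 2, the library at 28 counts, so its size rests on few counts. Relative to the sum of the microglial markers, Cnr2 was at 0.105% to 0.146% in SE-cKO mice and 0.0957% to 0.131% in SE-WT mice, against 0.0195% to 0.152% in sham-cKO mice and 0% to 0.0996% in sham-WT mice. Markers of blood monocytes, neutrophils and lymphocytes, which also use CB2, summed over 8 genes to 18.3 to 58.5 CPM in SE-cKO mice and 21.2, 4.05 and 4.04 CPM in SE-WT mice, against 2.32 to 4.69 CPM in sham-cKO mice and 1.71 to 4.72 CPM in sham-WT mice, with up to 2 of the 8 at 0 in a library of the first 3 groups and up to 4 in sham-WT. Of the 6 tested, 4 rose in cKO mice and none in WT mice. Among the lymphocyte genes, Cd3e had 0 counts in every library and Cd79a 0 in every SE library. Trac, the third, overlapped between SE and sham in both genotypes. The part of either cell type in the Cnr2 values was not tested.

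**Figure D4:**
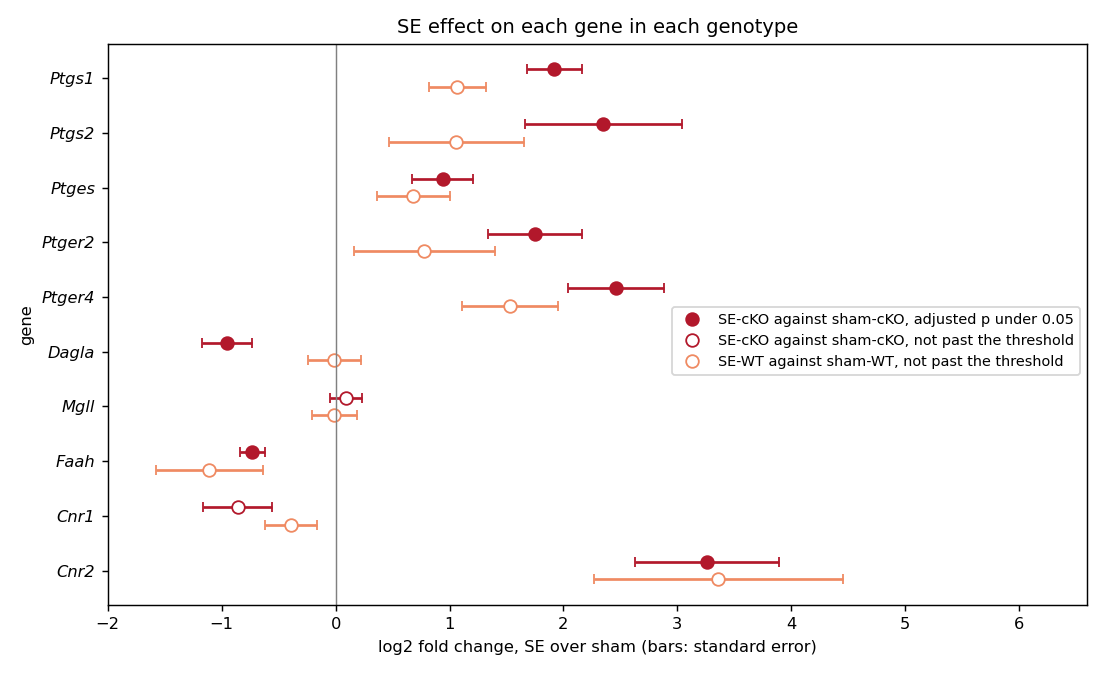
Log2 fold change of SE over sham (points) with its standard error (bars) for the 10 genes in cKO mice (SE-cKO against sham-cKO, dark red) and WT mice (SE-WT against sham-WT, orange). Filled points had an edgeR adjusted p under 0.05, which 8 genes had in cKO mice and none in WT mice. Cnr2 gives estimates of 3.26 in cKO mice and 3.36 in WT mice with long bars, and Mgll lies near 0 in both.

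Per length, Cnr1 and Mgll were the most abundant of the 10 genes in the sham groups. Cnr1 averaged 69.2 ± 23.6 TPM and Mgll 60.4 ± 10.1 TPM in sham-cKO mice (SD, n = 4), and 58.7 ± 15.5 and 55.2 ± 5.31 TPM in sham-WT mice (SD, n = 3), which do not differ beyond their spread. After SE, Mgll averaged 62.2 ± 12.2 TPM in SE-cKO mice and 62.3 ± 27.1 TPM in SE-WT mice, with Cnr1 at 35.4 ± 12.5 and 46.5 ± 10.2 TPM (SD, n = 3 each). Cnr1 TPM exceeded Cnr2 TPM by 31.4 to 64.3 times in SE-cKO mice and 74.4 to 111 times in SE-WT mice, against 198 to 3260 times in sham-cKO mice. In sham-WT mice the ratio was at least 583 in the libraries with any Cnr2. Cnr2 and Ptger2 averaged under 1 TPM in each group.

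Genes whose levels followed those of the members over the 13 libraries were named by rank of Pearson's r of log2 CPM, as a description. Ptgs1 was followed most closely by Lacc1 (r = 0.975), Nlrp1b (0.969) and Pfkfb4 (0.967). The closest to Ptger4 were Gpr84 (0.955), Tubb6 (0.954) and Itga2b (0.951), and the closest to Cnr2 were Xlr (0.978), Pirb (0.959) and Phf11b (0.95). Lacc1, Gpr84 and Pirb are known from macrophages and other myeloid cells. Ptges was followed by Il17rb (0.907), Trip10 (0.89) and Rsad2 (0.869), Ptger2 by Hmgn2-ps1 (0.89), Sv2c (0.886) and Picalm (0.88), and Dagla by Nr1d1 (0.957), Bicral (0.944) and Unc80 (0.94). Among the members, Ptgs1 correlated with Ptger4 at r = 0.81 and with Cnr2 at 0.76, but with Ptgs2 at 0.51 and with Dagla at -0.72. SE and sham libraries lie apart for many genes, which these correlations share.

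Other genes of the same pathways, 31 in 4 lists, place the 10 in context. In SE-cKO against sham-cKO 8 of the 29 tested rose and 1 fell, where 13.8% and 8.92% of all genes did. In SE-WT against sham-WT 5 of 29 rose and 1 fell, where 4.57% and 0.832% of all genes did. The medians over these genes were 0.3 and -0.08 on the log2 scale, beside 0 and 0.02 over all genes. Of 13 genes of prostanoid synthesis and removal, 5 rose and 1 fell in cKO mice and 3 rose in WT mice. Upstream of the cyclooxygenases, Pla2g4a, the cytosolic phospholipase that frees arachidonic acid, averaged 25.1 ± 8.78 CPM in SE-cKO mice (SD, n = 3) against 6.24 ± 1.34 CPM in sham-cKO mice (SD, n = 4), and rose by 1.98 on the log2 scale (edgeR adjusted p = 0.00113). Its WT log2 fold change of 0.92 had an edgeR adjusted p of 0.0677.

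Of the other synthases that use prostaglandin H2, Tbxas1 and Hpgds rose in both genotypes. Tbxas1, thromboxane A synthase, had log2 fold changes of 3.12 in cKO mice (edgeR adjusted p = 0.000685) and 2.38 in WT mice (edgeR adjusted p = 0.00529). Hpgds, a prostaglandin D synthase, had 2.02 in cKO mice (edgeR adjusted p = 0.000295) and 1.58 in WT mice (edgeR adjusted p = 0.00356). Ptgds and Ptgis, the lipocalin-type prostaglandin D synthase and prostacyclin synthase, are named here after their values were seen and were not called by edgeR. Ptgds was the more abundant, with log2 fold changes of -1.02 in cKO mice (edgeR adjusted p = 0.101, DESeq2 0.0174, voom 0.0256) and -0.74 in WT mice (edgeR adjusted p = 0.285). Hpgd, the dehydrogenase that inactivates prostaglandins, averaged 29.4 ± 4.63 CPM in SE-cKO mice and 23.0 ± 8.85 CPM in SE-WT mice (SD, n = 3 each), against 5.32 ± 0.992 CPM in sham-cKO mice (SD, n = 4) and 5.69 ± 1.16 CPM in sham-WT mice (SD, n = 3). It rose by 2.44 in cKO mice (edgeR adjusted p = 8.91e-05) and by 1.99 in WT mice (edgeR adjusted p = 0.0147). Ptgr1, which acts after Hpgd in prostaglandin breakdown, rose by 1.5 in cKO mice (edgeR adjusted p = 0.0291), and Cbr1, a carbonyl reductase that also uses prostaglandins, fell by 0.52 on the log2 scale (edgeR adjusted p = 0.0226). The sum of microglial markers given above moved in the same direction as the genes that rose, and its part in these results was not tested.

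None of the other 5 prostanoid receptor genes that could be tested passed in either genotype, also at an unadjusted p under 0.05 and by DESeq2 or voom. Ptgir and Ptgdr2 were too low to test, with at most 21 and 32 counts in a library. Of 8 further genes of endocannabinoid synthesis and removal, Abhd4, which acts on precursors of anandamide, rose in cKO mice (0.69, edgeR adjusted p = 0.0125) and in WT mice (0.93, edgeR adjusted p = 0.0479). Daglb, the paralog of Dagla, rose in cKO mice by 0.55 (edgeR adjusted p = 0.0223), opposite to the fall of Dagla there. Naaa, a lysosomal amidase for acylethanolamides, fell in WT mice by 0.55 on the log2 scale (edgeR adjusted p = 0.0473). The last list held the receptor Gpr55, the channel Trpv1 and Cnrip1, which encodes a protein that binds the CB1 receptor and was not called. Gpr55 had 0 counts in all 3 sham-WT libraries and 31, 15 and 21 in SE-WT libraries (edgeR adjusted p = 0.045). Its SE-WT mean was 7.48-fold the level that 3 counts per library would give in sham-WT, a ratio that rests on few counts. In SE-cKO libraries it had 12, 22 and 30 counts, against 7, 9, 27 and 13 in sham-cKO libraries. Gpr55 was not called there (log2 fold change 0.53, edgeR adjusted p = 0.672), and the groups overlapped. Trpv1, a cation channel that anandamide opens, was at 0.434 to 0.791 CPM in SE-cKO mice and 0 to 0.109 CPM in sham-cKO mice, with at most 62 counts in a library (edgeR adjusted p = 0.0481).

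Between the genotypes after SE, none of the 10 genes passed the test, nor did any of the 21126 genes (0%). At an unadjusted p under 0.05 the 1 gene was Ptger4 (9.68% of all genes), and DESeq2 and voom called none of the 10 (3.15% and 0% of all genes). For Ptger4 the log2 fold change in SE-cKO against SE-WT was 1.05 (standard error 0.34, edgeR adjusted p = 0.399). Ptger4 and Cnr2 did not overlap between the groups, both higher in SE-cKO, where 15% of all genes did not overlap. The log2 fold change was 0.60 for Cnr2 (standard error 0.36, edgeR adjusted p = 0.668), 0.65 for Ptgs1 (standard error 0.29, edgeR adjusted p = 0.529) and -0.63 for Dagla (standard error 0.28, edgeR adjusted p = 0.526). For Ptgs2 it was 1.00 with a standard error of 0.97 (edgeR adjusted p = 0.828), and it was -0.68 without SE-cKO replicate 3. The median over the 10 genes was 0.41, beside 0 over all genes. Microglial markers had a median of 0.46 and blood cell markers a median of 1.85 in the same comparison, with none of either list called, and their part in these differences was not tested.

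In the sham groups the order of the 10 genes by mean TPM was the same in cKO and WT mice, from Cnr1 and Mgll at the top to Ptger2 and Cnr2 at the bottom. None passed the test in sham-cKO against sham-WT (0% of 20785 genes did), none at an unadjusted p under 0.05 (5.54% of all genes), and none by DESeq2 (0.0821% of all genes) or voom (0%). The median log2 fold change was -0.09, beside 0.01 over all genes. The ranges overlapped for all 10 genes, where 7.69% of all genes did not overlap. The estimates nearest to the threshold were -0.27 for Ptgs2 (standard error 0.12, edgeR adjusted p = 0.868) and 0.36 for Dagla (standard error 0.18, edgeR adjusted p = 0.868).

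The SE effect in cKO mice minus that in WT mice, fitted over all 13 libraries, was not past the threshold for any of the 10 genes by edgeR (0.159% of 22596 genes), DESeq2 (3.97%) or voom (0.181%). At an unadjusted p under 0.05, 2 genes passed (12.5% of all genes): Dagla at -0.95 (standard error 0.34, edgeR adjusted p = 0.271) and Ptgs1 at 0.85 (standard error 0.38, edgeR adjusted p = 0.379). Ptgs2 had 1.29 with a standard error of 1.02 (edgeR adjusted p = 0.653), Ptger4 0.94 with 0.62 (edgeR adjusted p = 0.571) and Cnr2 -0.10 with 1.18 (edgeR adjusted p = 0.989). The 8 calls in cKO mice beside none in WT mice therefore do not show that the genotypes responded differently. The cKO comparison had 7 libraries and the WT comparison 6.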

How the data were processed

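Per the labels and methods, the authors made stranded total-RNA libraries, used bcl2fastq 2.20.0, Trimmomatic, HISAT2 2.1.0 on mm10, and StringTie 2.1.3b for quantification. The deposited table holds read counts, FPKM and TPM for each of 13 libraries. The strand setting used in counting is not given in the sources used here, so reads of overlapping genes may be shared. The counts deposited by the authors are whole numbers and were tested as counts. The TPM deposited by the authors served for levels between genes, and the deposited FPKM were not used.

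For each comparison, the 2 groups alone were fitted in edgeR 4.0.16 (R 4.3.3) after filterByExpr (minimum count 10, minimum total 15) and TMM scaling, using robust quasi-likelihood tests with Benjamini-Hochberg adjustment over all genes tested and a threshold of 0.05. The interaction used all 13. Log2 CPM used a prior count of 2. The tests were also run on simulated data, with results that are not given here. Alternatives were DESeq2 1.42.0, voom with quality weights in limma 3.58.1, RLE factors, no filter, 1 fit of all groups, a replicate block, and libraries left out (1 in turn within the 2 groups, or several at once in a fit of all 4 groups). Pairs of replicates differed by 51.8 to 475 times the sampling variance, so none were merged, and the spread between mice far exceeds counting error.

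All 10 genes are named, with the other pathway genes called in a comparison of 2 groups, and the 3 genes of highest r for each member called, among genes with a mean of at least 1 CPM and no predicted or clone name. The members, lists and libraries left out were chosen with earlier results of these data known. Over all libraries, other marker lists summed to 2620 to 7740 CPM (oligodendrocytes), 82.1 to 234 CPM (endothelial cells), 40.7 to 219 CPM (fibroblasts) and 418 to 1300 CPM (inhibitory neurons). The highest oligodendrocyte sum was in SE-WT replicate 3, followed by 5090 CPM in sham-cKO replicate 2, the libraries high in thalamic genes. Promoter and site sequences are from RefSeq on GRCm38.p6.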

Additional observations from a re-analysis of the deposited data

Results flagged for a closer look

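Cnr1 in sham-cKO mice had 1 library far from the others. Replicate 2 was at 156 CPM beside 315 to 342 CPM in the other 3, a gap of 0.854 of the range of the group, above Dixon's limit for 4 samples. Chance gives such a gap in about 1 of 20 groups, and 10 were examined. This library was also the one with the highest sum of thalamic neuron genes (967 CPM) and had the lowest sum of CA pyramidal markers in the sham groups (248 CPM), whose part in the Cnr1 value was not tested. Without it the log2 fold change of Cnr1 in SE-cKO against sham-cKO was -1.08 (edgeR adjusted p = 0.0102).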

How the results depend on the processing

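Calls in SE-WT against sham-WT depended on the tool and the libraries: 0 of the 10 genes in the main test, 3 by DESeq2 and by voom, 1 with all 4 groups in 1 fit, 2 in a fit of all 4 groups without SE-WT and SE-cKO replicates 3, whose titles follow another pattern, 2 in such a fit without the striatal-high or thalamic-high libraries (SE-WT replicates 2 and 3, sham-cKO replicate 2), which leaves 1 SE-WT library that is assumed to vary like the other groups, 0 to 1 with a library left out (Ptgs2 without SE-WT replicate 2, Ptgs1 without SE-WT replicate 3), and 4 at an unadjusted p under 0.05. In SE-cKO against sham-cKO the count of 8 became 4 in the fit of all 4 groups without both replicates 3 (Faah, also not called there with all libraries, was among the calls lost) and 5 to 7 with 1 library left out (5 without SE-cKO replicate 3). In the fits without 1 library Ptgs1, Ptger4, Faah and Cnr2 were called each time. The replicate numbers gave correlations of -0.07 to 0.25 and were not taken as pairs. With a replicate block 5 were called in cKO mice. At an unadjusted p under 0.05 there was 1 in SE-cKO against SE-WT and 2 in the interaction. Beyond the shares given with the results above, the share of all genes called was not counted for these fits. A changed count among the 10 can therefore follow how many genes a fit calls in general.

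No called value changed sign. Values not called that did, with a library left out, ranged from -0.31 to 0.16 (Dagla) and -0.23 to 0.16 (Mgll) in SE-WT against sham-WT, from -0.68 to 1.49 (Ptgs2), -0.28 to 0.31 (Ptges), -0.16 to 0.23 (Mgll) and -0.20 to 0.72 (Faah) in SE-cKO against SE-WT, and from -0.57 to 0.26 (Ptger2), -0.15 to 0.42 (Ptger4), -0.12 to 0.04 (Mgll) and -0.07 to 0.27 (Cnr1) in sham-cKO against sham-WT. For the interaction these ranges were -0.41 to 1.77 (Ptgs2), 0.00 to 0.63 (Ptges), -0.10 to 0.31 (Mgll), -0.07 to 0.87 (Faah) and -2.26 to 0.61 (Cnr2). With all 4 groups in 1 fit Dagla and Mgll were at 0.02 in SE-WT against sham-WT, and Mgll at 0.03 in SE-cKO against SE-WT, as by voom and with the replicate block. Without a filter Dagla was at 0.00 in SE-WT against sham-WT. In the fit of all 4 groups without both replicates 3 from SE mice, Ptgs2 was at -0.24 and Mgll at 0.21 in SE-cKO against SE-WT. In that without the striatal-high or thalamic-high libraries, where SE-WT is 1 mouse, Mgll was at 0.11 in SE-cKO against SE-WT, Ptger4 at -0.05 in sham-cKO against sham-WT, and the interaction at -0.36 for Ptges and 0.53 for Cnr2. Voom gave -0.12 for the Ptges interaction, and the replicate block -0.05 for Cnr1 in sham-cKO against sham-WT. The causes were not tested beyond which libraries were left out. Precision rests on 3 or 4 mice per group, and Cnr2 and Ptger2 on few counts in sham mice.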
